A study of Arabidopsis thaliana with 8 samples.

Results

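Among the transcripts of dark-grown Arabidopsis seedlings, 47 probe sets stood apart in the phyB single mutant and in no other genotype of the study. Those that name 1 gene are described here one by one, and the others in part. A probe set is the group of short probes that reports 1 transcript on the Affymetrix ATH1 array. The members were chosen on the measured values themselves, on the scale log2(intensity + 39). A member has a mean of at least 8 on that scale over the 8 arrays, both phyB arrays above or both below all 6 other arrays, and a phyB mean at least 1 away from each of the 3 other genotype means. Of 22746 probe sets without controls, 16066 reached the mean of 8, and 47 met the whole rule, 11 of them raised in phyB and 36 lowered.

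The groups were wild type (WT, Columbia), the phyA mutant (allele phyA-211), the phyB mutant (allele phyB-9) and the phyAphyB double mutant (phyA-211 with phyB-9), with 2 arrays each. All groups shared 5 days of chilling at 6 degrees C, 1 h of white light and then 3 days of darkness at 22 degrees C on 0.8% agar. Each mutated gene was represented by 1 allele, so an effect of the allele's own genetic background cannot be told apart from that of the gene. The labels do not say whether both arrays of a genotype stem from different cultures, so a p-value here reflects array-to-array spread alone, possibly of technical origin.

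Phytochromes are red and far-red light receptors that switch between an inactive and an active form. Phytochrome A is the abundant, light-labile receptor of seeds and etiolated seedlings, and phytochrome B is the stable receptor that dominates in red light. Active phytochromes enter the nucleus and remove growth-promoting transcription factors of the PIF class, and active phytochrome B made in a light pulse can persist for some time in darkness. The phyAphyB arrays show the same phyB-9 allele in seedlings that lack phytochrome A as well.

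The 2% trimmed mean was 2500.2 to 2500.3 on the 8 arrays, and precision is limited by the number of arrays. The 3'/5' ratio of the GAPDH control transcript, a measure that goes up with RNA degradation, reached 7.87 on the array of phyB replicate 2 and 16.7 on that of WT replicate 1, while the remaining 6 ranged from 1.31 to 2.31. The same ratio of the actin control was 46.7 on WT replicate 1. On phyB replicate 2 it was 7.5, within the 3.64 to 10.8 of the remaining 6, so only GAPDH set that array apart. Of 9 marker loci listed to check the labelled stage and organs, 2 had a probe set of their own. PYK10, a root-abundant beta-glucosidase, had intensities of 66582 to 120174 over the 8 arrays, and PAP85, a seed storage protein, 4426 to 24718. Both were highest in phyB replicate 2. In whole seedlings, fewer cells of a type and less RNA per cell cannot be told apart.

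The same rule was applied to each of the other genotypes to place the count. It set apart 165 probe sets in WT (19 higher and 146 lower), 31 in phyA (8 higher and 23 lower) and 13 in phyAphyB (2 higher and 11 lower), against 47 in phyB. The phyB count therefore lay between those of WT and phyA. With the bound of 8 on the mean, more probe sets were set apart lower than higher in every genotype. In phyB this order turned without that bound, at 133 raised and 99 lowered. The 11 raised members are 0.0685% and the 36 lowered members 0.224% of the 16066 probe sets. Without the bound of 1 on the means, both phyB arrays lay above all 6 others at 371 probe sets (2.31%) and below them at 517 (3.22%). The same counts were 847 and 903 for WT, 381 and 432 for phyA, and 243 and 122 for phyAphyB, so such separation is not particular to phyB. Members just inside the bound were 262835_at at -1.01, AT5G38100 at 1.02 and AT1G78460 at 1.03 from the nearest genotype mean. Just outside it lay AT3G13510 and 258677_at at -0.98 each and 258003_at at 0.98.

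**Figure D1:**
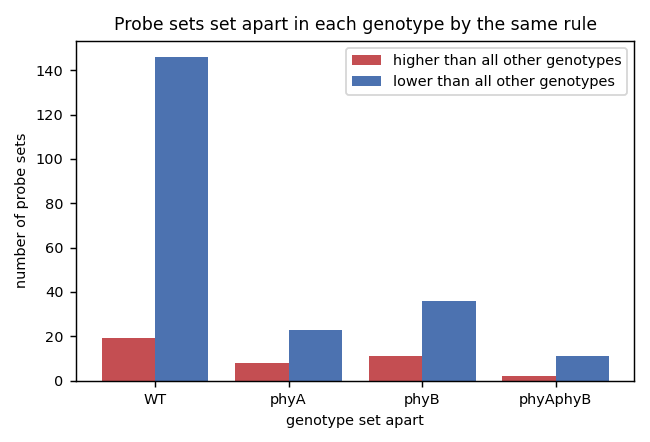
Number of probe sets (vertical axis) that the same rule sets apart in each genotype (horizontal axis), higher in red and lower in blue, of 16066 probe sets. The phyB bars stand at 11 and 36, the WT bars at 19 and 146.

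The raised members were led by probe sets that the annotation table does not pair with a gene. Of the 11, 4 name exactly 1 gene and 7 are not listed in that table. Probe set 267545_at had intensities of 2693 and 3853 in phyB, 276 and 626 in WT, 848 and 305 in phyA, and 375 and 341 in phyAphyB. Its mean of 11.67 ± 0.36 in phyB (SD, n = 2, as for every mean ± SD below) lay 2.83 above WT on the log2 scale, 2.56 above phyA and 3.04 above phyAphyB. The phyB arrays thus stood well clear of a low level shared by the other 6.

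Probe set 252957_at showed steps rather than a flat background. Its intensities were 8840 and 8096 in phyB, 539 and 1042 in WT, 2348 and 1676 in phyA, and 1775 and 1419 in phyAphyB. The genotypes without phytochrome A stood between WT and phyB, and the arrays of phyB did not overlap with them. Probe set 244906_at had 995 and 1585 in phyB, 76 and 233 in WT, 397 and 338 in phyA, and 89 and 427 in phyAphyB. The replicates of WT and of phyAphyB differed there by more than those of phyB.

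PDF2.1, which encodes a plant defensin, a small cysteine-rich secreted peptide of the antimicrobial defensin family, was the raised member with a gene symbol. Its intensities were 4969 and 5812 in phyB, 3223 and 1993 in phyAphyB, 1608 and 595 in WT, and 958 and 657 in phyA. Both arrays of phyAphyB were above all arrays of WT and phyA, so this transcript was high in both genotypes that carry phyB-9, and highest in the single mutant. Its phyB mean of 12.40 ± 0.16 lay 2.41 above WT but 1.07 above phyAphyB, close to the bound of the rule. The distance to phyAphyB was 0.73 without phyAphyB replicate 2 and 0.96 without phyB replicate 2.

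AT1G78460, a gene of the SOUL haem-binding family, had 3374 and 1958 in phyB and 1000 to 1531 in the other 6 arrays. AT5G38100, a gene of the SABATH methyltransferase family, whose enzymes methylate small acids such as hormones, had 673 and 651 in phyB and 80 to 472 elsewhere. AT3G25870, which the tables name by locus only, had 596 and 607 in phyB and 63 to 308 elsewhere. The distances of these genes to the nearest genotype mean were 1.03, 1.02 and 1.13, and in each the phyB arrays stood above the rest without overlap. The distance was 0.64 without phyB replicate 1 for AT1G78460, and 0.46 without WT replicate 2 for AT5G38100. For AT3G25870 it was 0.88 without phyA replicate 2, and 0.98 with a pseudocount of 100. Gene families given here for a locus without a symbol are background knowledge, since the tables hold only its locus.

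The 4 remaining raised members are not listed. The brightest, 264026_at, had 12400 and 15269 in phyB, but phyA replicate 1 reached 10099 against 2240 in phyA replicate 2. The 257679_at intensities were 1225 and 1540 in phyB, with phyA replicate 1 again the next at 822. Without phyA replicate 2 the distances of 264026_at and 257679_at were 0.44 and 0.71, against 1.52 and 1.32 with all arrays. Probe sets 257330_at and 247128_at lay 1.06 and 1.04 from the nearest genotype mean, and 257330_at lay 0.48 from it without phyB replicate 2. The nearest array to phyB was phyA replicate 1 in 5 of the 11 raised members, more often than any other array.

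**Figure D2:**
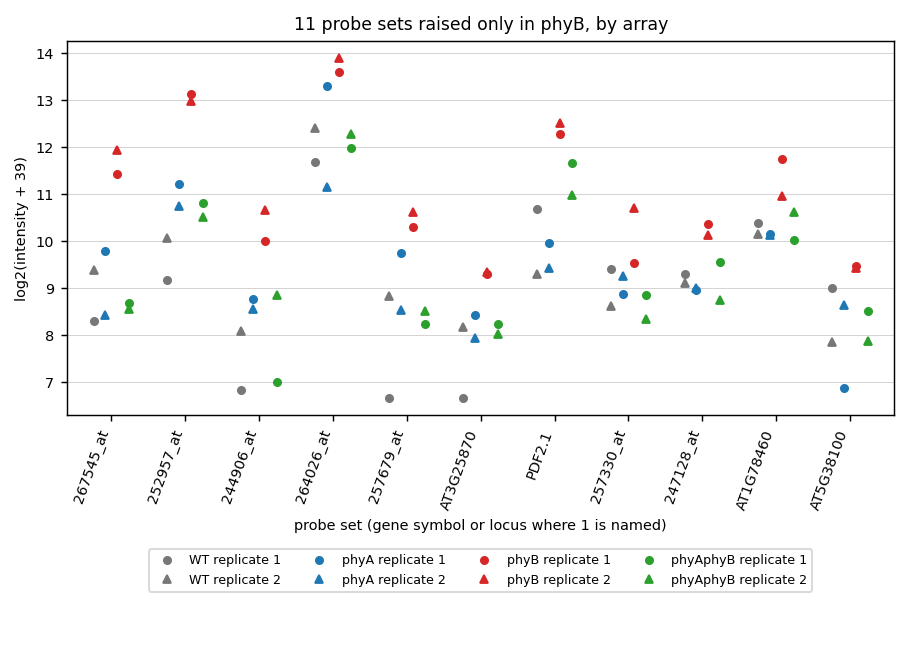
log2(intensity + 39) (vertical axis) of the 11 raised probe sets (horizontal axis, ordered by distance to the nearest genotype mean), with circles for replicate 1 and triangles for replicate 2. The red phyB points lie above all others by construction, and for PDF2.1 the green phyAphyB points lie next below them.

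The lowered members with a gene name included a jasmonate-response transcription factor, a ubiquitin ligase, protein kinases and an expansin. Of the 36, 20 name exactly 1 gene and 16 are not listed in the annotation table. The largest separation belonged to AT3G59340, a gene of the solute carrier type, with intensities of 71 and 114 in phyB, 600 and 968 in WT, 663 and 997 in phyA, and 654 and 510 in phyAphyB. Its phyB mean of 7.02 ± 0.34 differed by -2.63 from WT, by -2.72 from phyA and by -2.25 from phyAphyB. Both phyB arrays were low, and the gap to the nearest other array was 1.84 on the log2 scale.

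MYC4 encodes a bHLH transcription factor that acts with MYC2 and MYC3 in the jasmonate response. Its intensities were 129 and 69 in phyB, 604 and 544 in WT, 306 and 580 in phyA, and 270 and 462 in phyAphyB. The phyB mean was 7.07 ± 0.45, against 9.26 ± 0.10 in WT, 8.85 ± 0.60 in phyA and 8.62 ± 0.49 in phyAphyB. The WT arrays were close together and the phyA arrays were not.

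PUB23 encodes a U-box ubiquitin ligase known as a negative regulator of drought and immune responses. It had intensities of 106 and 67 in phyB, 378 and 368 in WT, 327 and 246 in phyA, and 269 and 449 in phyAphyB. The phyB mean of 6.95 ± 0.32 differed by -1.38 from that of phyA, the nearest genotype, and the gap between the higher phyB array and the nearest other array was 0.97.

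Among protein kinase genes, AT1G49180, of the family whose founding member starts autophagy, had 209 and 45 in phyB and 460 to 792 in the other 6 arrays. AT4G22730, of the leucine-rich repeat kinase family, had 283 and 37 in phyB and 323 to 542 elsewhere, with a gap of 0.17 between phyB replicate 1 and the lowest of the other arrays. WNK9, a kinase that lacks the lysine at the usual position of its active site, had 349 and 518 in phyB, 1089 and 1172 in WT, 569 and 1489 in phyA, and 727 and 1499 in phyAphyB. The WNK9 distance to phyA, the nearest genotype mean, was -1.05, and -0.39 to the nearest mean without phyA replicate 2.

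EXPA16, an alpha-expansin that loosens cell walls during growth, had intensities of 279 and 54 in phyB, 549 and 380 in WT, 394 and 436 in phyA, and 404 and 682 in phyAphyB. The difference between the phyB arrays, at 8.31 and 6.54 on the log2 scale, was larger than the gap of 0.40 between the higher of them and the nearest other array. The EXPA16 distance to the nearest genotype mean was -1.40, and -0.51 without phyB replicate 2. AT1G09890, of the rhamnogalacturonate lyase family, whose enzymes cut pectin, had 123 and 72 in phyB and 229 to 587 elsewhere. Other expansin genes stood the opposite way in phyB, although none met the rule. EXPA8 was at 31590 and 35682 in phyB and at 4231 to 27122 elsewhere, EXPA7 at 775 and 950 against 99 to 738, and EXPA20 at 2542 and 2097 against 835 to 2073. These 3 were picked after their values were seen. Their nearest arrays were those of phyA, at 27122, 738 and 2073. The lowest values of EXPA8 and EXPA7 came from WT replicate 1, the array with the GAPDH ratio of 16.7. Of 28 measured cell wall genes, phyB stood above the mean of the other genotypes at 16 and below it at 12. EXPA18 at -0.10 and EXLA2 at -0.49 were among the latter.

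A group of lowered members had a clear deficit in phyB replicate 2 and a small one in phyB replicate 1. AT2G23890, of a nucleotidase-type hydrolase family, had 256 and 25 in the phyB arrays, against 337 to 1155 elsewhere. AT5G44660, named by locus only, had 367 and 36, against 517 to 1070. AT3G02060, of a DNA helicase family, had 296 and 75, against 355 to 1173. The gaps between phyB replicate 1 and the lowest other array were 0.35, 0.45 and 0.23 on the log2 scale.

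Further genes of that shape were AT5G49500, a signal recognition particle subunit, with 232 and 56 in phyB against 256 to 526 elsewhere, and AT1G16680, of the DnaJ chaperone family, with 230 and 79 against 231 to 671. AT5G64600, of the O-fucosyltransferase family, had 410 and 117 against 422 to 753, and AT3G03240, of the alpha/beta hydrolase family, 235 and 89 against 259 to 686. AT1G16680 and AT5G64600 were the closest to overlap of the 36, at gaps of 0.01 and 0.04. In AT5G58210, named by locus only, phyB replicate 1 was further from the rest, with 126 and 39 against 228 to 891.

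In other lowered members phyB replicate 2 was not the lower array. AT3G19080, of the SWIB chromatin-domain family, had 73 and 76 in phyB, 437 and 282 in WT, 200 and 253 in phyA, and 411 and 293 in phyAphyB. AT3G07540, of the actin-organising formin family, had 112 and 145 in phyB, but phyAphyB replicate 1 was at 163 and phyA replicate 2 at 1259, and its distance was -0.28 without phyAphyB replicate 2. AT1G70570, of the anthranilate phosphoribosyltransferase family of tryptophan synthesis, had 727 and 976 in phyB and 1324 to 3132 elsewhere. AT4G22320, named by locus only, had 70 and 191 in phyB and 226 to 470 elsewhere, with the lower value in replicate 1.

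Of the lowered members without a gene name, 264125_at had 241 and 92 in phyB and 412 to 1099 elsewhere, 250429_at 219 and 25 against 287 to 787, and 250500_at 103 and 32 against 164 to 599. The brightest, 247766_at, had 1166 and 1214 in phyB and 1555 to 4501 elsewhere. The 1 member whose name marks probes shared with other transcripts, 259553_x_at, had 614 and 596 in phyB and 991 to 4060 elsewhere, so its level can hold several genes. Both were chosen after their values were seen. The 11 other members without a name differed by -1.67 to -1.01 from the nearest genotype mean.

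**Figure D3:**
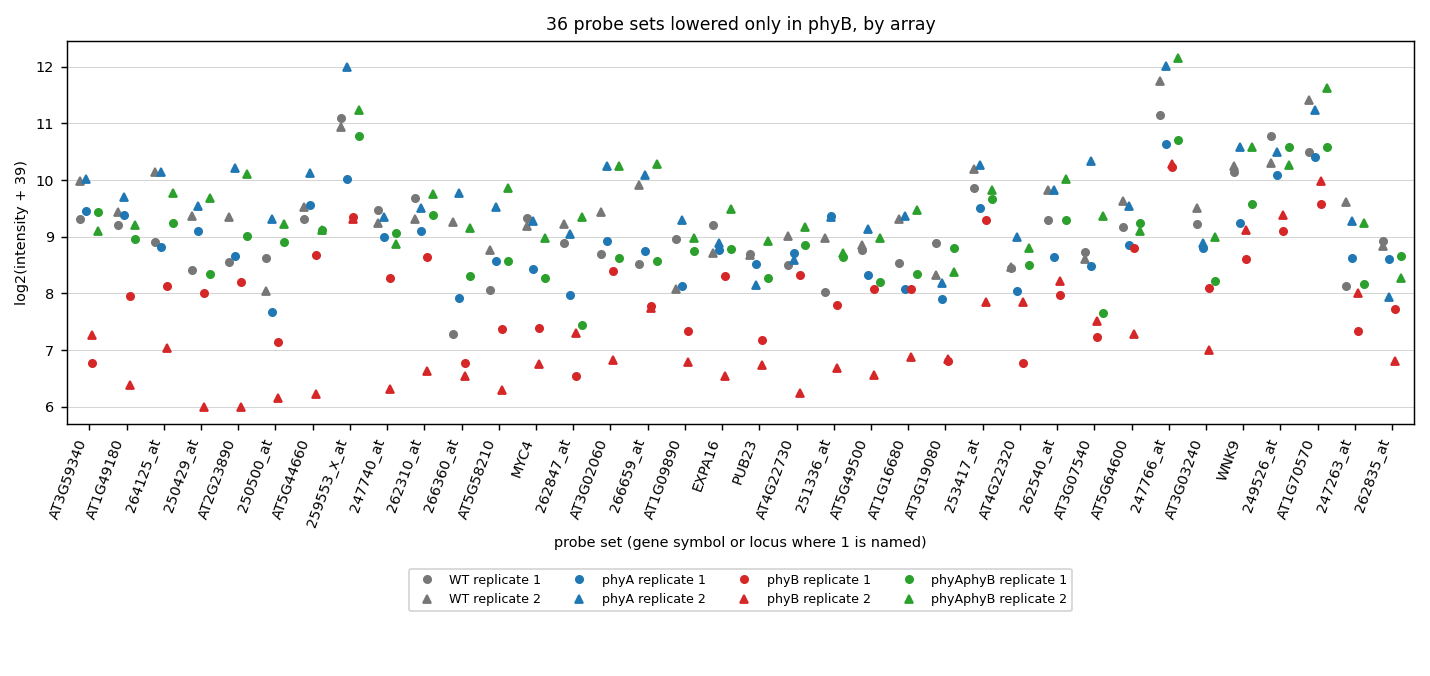
log2(intensity + 39) (vertical axis) of the 36 lowered probe sets (horizontal axis, ordered by distance to the nearest genotype mean), with circles for replicate 1 and triangles for replicate 2. The red phyB points lie below all others by construction, and the phyB triangle is the lower of the pair in 25 of 36 probe sets.

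Lowered members were dim, and their lowest values came mostly from 1 array. The mean over the 8 arrays was under 9 for 27 of the 36 (75%), against 17.7% of the 16066 probe sets. The bound of 8 on the mean leaves out dimmer probe sets, and a low value in phyB itself pulls the mean down. Without that bound 133 raised and 99 lowered probe sets met the rest of the rule, so the excess of lowered members depends on it. The 36 had a median intensity of 224.5 on the array of phyB replicate 1 and of 75.5 on that of phyB replicate 2, where the remaining 6 arrays had medians of 392.5 to 703. In phyB replicate 2, 22 of the 36 were under an intensity of 100 and 6 were at or under the pseudocount of 39, where phyB replicate 1 had 5 and 0. Over the 16066 probe sets, 160 were under 100 in phyB replicate 2 and 101 in phyB replicate 1. The array with these low values is also the one with the GAPDH ratio of 7.87, whose part in the result was not tested.

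The rule did not use the order of the replicates, but it chose the lowered members on these phyB values. An array with more low values, as phyB replicate 2 has over the 16066 probe sets, is then favoured as the lower one. The phyB order is therefore not independent of the choice of members. It differed from the order in the other genotypes. Replicate 2 was the higher array for 24 of the 36 lowered members in WT, 32 in phyA and 29 in phyAphyB, and for 11 in phyB. Over the 16066 probe sets the shares were 53.3%, 62.9% and 52.8%, and 55.8% in phyB. The median of replicate 2 minus replicate 1 was 0.30 in WT, 0.82 in phyA and 0.68 in phyAphyB, and -0.96 in phyB, where the median over the 16066 was 0.10. Raised members had replicate 2 higher in 7 of 11 in phyB, with a median of 0.22.

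Single phyB arrays were also compared with the genotype means. Each of the phyB arrays lay at least 1 from all 3 other genotype means for 15 of the 36 lowered members and 6 of the 11 raised. The 7 lowered ones among these with a gene name were AT3G59340, AT1G49180, AT5G58210, MYC4, AT1G09890, PUB23 and AT3G19080, and the raised one was AT3G25870. For phyB replicate 1 alone 21 of the 36 did so, and for phyB replicate 2 alone 30. The phyB arrays were within 0.5 of each other for 7 of the 11 raised members and 11 of the 36 lowered, and at least 1 apart for 1 and 19. Over the 16066 probe sets they were within 0.5 for 8419 and at least 1 apart for 2760. The phyB arrays were thus more often far apart at the lowered members than over all probe sets. However, the members were chosen on these phyB values, and 75% had a mean under 9, against 17.7% of the 16066. The comparison therefore gives no result about the members.

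The distance to the nearest genotype mean was recomputed without each array in turn. It moved by over 1.5 times at 30 of the 36 lowered and 5 of the 11 raised members, and at 17 of the 36 it was smallest without phyB replicate 2. It stayed at 1 or more without any 1 array at 8 lowered members, AT3G59340, AT1G49180, AT5G58210, MYC4, PUB23, AT3G19080, 264125_at and 250500_at, and at 3 raised ones, 267545_at, 252957_at and 244906_at. Of the lowered ones, PUB23, AT3G19080 and 250500_at had means over all arrays of 8.14, 8.02 and 8.14, close to the bound of 8. These members did not meet the rule under every other pseudocount and scaling tried. MYC4 ranged from -1.20 to -1.87, AT3G59340 from -2.01 to -2.49 and AT1G49180 from -1.13 to -2.69. In contrast, AT4G22730 was at -0.32, AT5G44660 at -0.46 and AT2G23890 at -0.75 without phyB replicate 2.

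The differences among WT, phyA and phyAphyB were not part of the rule and were tested with limma over all probe sets kept. The filter on low means left 22 of the 47 members in that test (8 raised and 14 lowered), and a fit over the 16066 probe sets, added after seeing this, held all 47. The comparison of phyAphyB with phyA asks what loss of phytochrome B does where phytochrome A is lost too. No member was called (limma adjusted p of 1.00 for each of the 22 and, in the wider fit, each of the 47), beside 0 of 13647 probe sets (0%) and 0 of 16066 in the wider fit. At an unadjusted p under 0.05 there were 1 of 8 raised and 0 of 14 lowered members in the narrower fit, against 0.784% of all. Few calls do not show that these genotypes were alike. The fit shares 1 estimate of the spread over all genotypes, so a wide gap between the phyB arrays of a member raises its SE here. AT5G44660 had an SD of 1.72 in phyB, 0.39 in phyA and 0 in phyAphyB, and an SE of 0.69 for phyAphyB minus phyA. The rule also requires the 6 arrays of these genotypes to lie on the same side of phyB. The tests were thus not free of the choice of members.

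For the lowered members the phyAphyB minus phyA difference ranged from -0.90 to 0.57 around a median of 0.02, and was above 0 for 20 and below 0 for 16. The median over the 16066 probe sets was 0.05. Single arrays set the size and sign of the members' median, which was -0.51 without phyA replicate 1, 0.40 without phyA replicate 2, 0.31 without phyAphyB replicate 1 and -0.32 without phyAphyB replicate 2. MYC4 was at -0.23, EXPA16 at 0.32 and PUB23 at 0.26, while the phyB minus WT values of the same genes were -2.18, -1.53 and -1.73. The rule bars any member whose phyAphyB mean is within 1 of the phyB mean, so part of this contrast is fixed by the choice of members. It gives no test of a need for phytochrome A.

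For raised members the median phyAphyB minus phyA difference was -0.10, above 0 for 4 and below 0 for 7. PDF2.1 was the exception in size, at 1.63 (SE 0.49, limma adjusted p = 1.00, unadjusted p = 0.0079). It was also 1.33 higher in phyAphyB than in WT (SE 0.49, adjusted p = 1.00), a difference of 0.64 if WT replicate 2 is left out and of 2.02 if WT replicate 1 is. The other 10 raised members lay between -0.76 and 0.42.

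**Figure D4:**
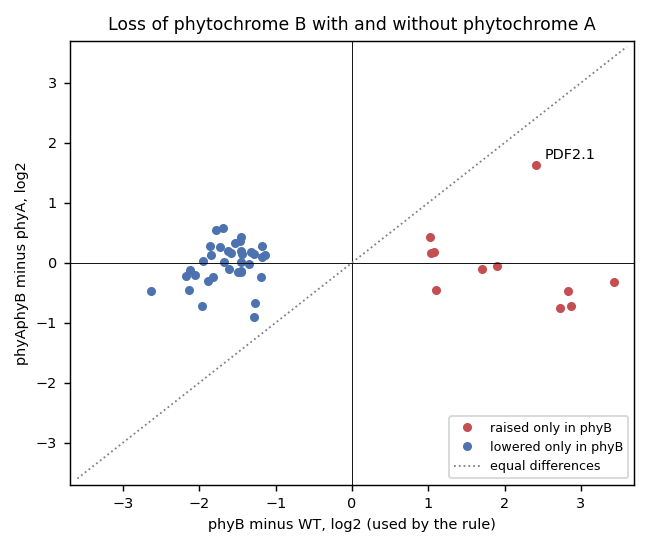
Difference between phyAphyB and phyA (vertical axis, log2) against that between phyB and WT (horizontal axis, log2, used by the rule) for the 47 probe sets, raised in red and lowered in blue. The blue points lie between -0.90 and 0.57 on the vertical axis, and PDF2.1 at 1.63 is the highest red point.

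Loss of phytochrome A alone moved no member past the threshold. For phyA against WT, 0 of 22 members were called by limma (smallest adjusted p = 0.76), beside 2 of 13647 probe sets (0.0147%), and 0 of 47 in the wider fit (smallest adjusted p = 0.82), beside 0.0124% of 16066. At an unadjusted p under 0.05 there was 1 raised member, against 6.37% of the 13647. The median difference was 0.18 for raised and -0.09 for lowered members, against -0.01 over the 16066. The raised median was 0.95 without phyA replicate 2. Probe set 252957_at stood 1.36 higher in phyA (SE 0.40, adjusted p = 0.76, unadjusted p = 0.0071), and 0.90 higher without WT replicate 1.

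For phyAphyB against WT, 0 of 22 members were called (adjusted p of 1.00), beside 3 of 13647 (0.022%), and 0 of 47 in the wider fit, beside 0.0249%. At an unadjusted p under 0.05 there were 2 raised members, PDF2.1 and 252957_at at 1.04 (SE 0.40, and 0.59 without WT replicate 1), and no lowered ones, against 3.57% of all. The phyA and phyAphyB comparisons share the WT arrays. Of the 36 lowered members, 27 differed by under 0.5 between phyA and WT, 30 between phyAphyB and WT, and 31 between phyAphyB and phyA. Over the 16066 probe sets these counts were 10739, 11554 and 13870, so most probe sets differed as little. No lowered member differed by 1 or more in any of the 3 comparisons. Few of all probe sets did either, at 1170, 816 and 307 of the 16066, so 0 of 36 is not read as a trait of the members.

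The arrays of these 3 genotypes were also compared without a model. Both phyAphyB arrays lay above both phyA arrays at 2 of the 36 and below both at 4, where the shares over the 16066 probe sets were 11.1% and 8.58%. For phyA against WT the counts were 2 above and 4 below, beside 17.3% and 16.9%. For phyAphyB against WT they were 2 above and 6 below, beside 17.1% and 12.8%. At the 11 raised members the counts above and below were 1 and 2 for phyAphyB against phyA, 2 and 1 for phyA against WT, and 2 and 0 for phyAphyB against WT.

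Each gene list held at most 1 member. In the cell wall list, 1 of 28 measured genes (3.57%) was lowered only in phyB (EXPA16), where 0.224% of all probe sets were, and 0 were raised. In the defence list, 1 of 18 (5.56%) was raised (PDF2.1), where 0.0685% of all were, and 0 were lowered. A single gene sets each of these shares. No gene was a member in the lists of phytochrome and light signalling (2 measured), nuclear photosystem and antenna (8), auxin response (9), gibberellin (3), seed reserves and embryo (6), or stress and handling (6). The cytosolic ribosomal list had 0 probe sets under the symbols used.

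No named organelle probe set was a member, among 69 plastid-encoded (69 genes) and 18 mitochondrion-encoded ones (12 genes). Members without a gene name could not be placed in either list. The phyB mean stood above the mean of the other 3 genotypes by a median of 0.45 for plastid-encoded and 0.80 for mitochondrion-encoded probe sets, against -0.04 over the 16066. These shifts were larger in phyB replicate 2, the array with the GAPDH ratio of 7.87, whose part was not tested. Alone, phyB replicate 2 stood higher by a median of 1.21 (66 of 69 positive) and 1.57 (18 of 18), and phyB replicate 1 by -0.34 (17 of 69) and 0.10 (10 of 18). For psaI, a photosystem I subunit, the phyB arrays were at 5562 and 35364, and for nad4, a subunit of respiratory complex I, at 737 and 3280, with phyB replicate 1 below all other arrays in both. These 2 genes were picked after their values were seen.

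Among the named organelle probe sets, both phyB arrays lay above all 6 others only at rpoC1, a subunit of the plastid RNA polymerase, with 6541 and 11923 in phyB and 3012 to 6031 elsewhere, and at nad9, also of complex I, with 881 and 1686 against 170 to 838. In these lists phyB replicate 2 was the higher phyB array at 64 of 69 and 18 of 18, the reverse of the order at 25 of the 36 lowered members.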

How the data were processed

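ATH1 arrays measured total RNA of 8 samples, grouped by the genotype in their titles. The authors deposited linear intensities, given for every probe set on every array as a whole number. The software and genome build behind them are not given in the sources used here, and equal 2% trimmed means show that the arrays had been scaled to a common mean. Intensities were used as deposited, log2(intensity + 39) was taken, 39 being the 10th percentile of the values without controls, and 64 control probe sets were left out. limma 3.58.1 (R 4.3.3) fitted 1 mean per genotype to all 8 arrays (eBayes with an intensity trend, two-sided, Benjamini-Hochberg, threshold 0.05), without the 40% of probe sets lowest in mean, and was tested on simulated data. Contrasts of phyB with the other genotypes were the rule's own and got no test. Genes were named through the platform's annotation table, updated with RefSeq genes (TAIR10.1). Of 22746 probe sets, 13513 named 1 gene, 503 several and 8730 were not listed. PHYA and PHYB had no probe set naming them alone, so the mutations could not be checked. Members naming 1 gene could all be named, those without a name by rank, 3 in each direction. Any others were chosen after their values were seen. The members and gene lists were chosen with earlier results of these data known. No sequences are given. Alternatives covered the pseudocount, scaling, filters, the replicate block and leaving out arrays.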

Additional observations from a re-analysis of the deposited data

Results flagged for a closer look

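At 4 members both phyB arrays lay on one side of both WT arrays, and both phyAphyB arrays on the opposite side of both phyA arrays. The first part holds at all 47 members by the rule. For the second part, both phyAphyB arrays were above both phyA arrays at 2 of the 36 lowered members, beside 11.1% of the 16066 probe sets. They were below both at 2 of the 11 raised members, beside 8.58%. The pattern is therefore not particular to the members. The difference between the phyB minus WT and phyAphyB minus phyA values was not tested, since the choice of members uses it. AT3G19080 was at -1.78 for phyB minus WT and at 0.55 for phyAphyB minus phyA. AT4G22730 was at -1.47 and 0.36. Among raised members without a gene name, 257679_at was at 2.72 and -0.76, and 257330_at at 1.1 and -0.46.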

How the results depend on the processing

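No member was called for phyAphyB against phyA, phyA against WT or phyAphyB against WT under any alternative run, the replicate block included, which called 3 probe sets of all for phyA against WT, 3 for phyAphyB against WT and 0 for phyAphyB against phyA. Deviations from the genotype means of same-numbered arrays correlated at 0.42 (WT and phyA), 0.64 (WT and phyAphyB) and 0.60 (phyA and phyAphyB) among the genotypes tested, and at -0.06, 0.41 and 0.15 for phyB with WT, phyA and phyAphyB. No label says what a number stands for, and with 2 arrays a genotype the correlations do not settle whether the numbers mark a shared batch, so the replicate block stayed an alternative. Over all probe sets, phyA against WT gave 1 call and phyAphyB against WT 1 call with a pseudocount of 1, and phyA against WT gave 1 with 60% left out. Leaving out 1 array gave 1 to 106 and 1 to 30 calls, the highest without WT replicate 2.

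The number of members depended on the bounds. Raised and lowered members numbered 49 and 89 with a mean of at least 7, 7 and 9 with at least 9, and 133 and 99 with no such bound. They numbered 37 and 72 at a distance of 0.8 and 4 and 13 at 1.5. Raised members numbered 20 with median centring and 24 with quantile normalization. Of the 11 raised, 6 met the rule under all 4 of 2 other pseudocounts, median centring and quantile normalization, as did 17 of the 36 lowered. Leaving out 1 array gave 8 to 359 raised and 22 to 400 lowered. The highest counts came without phyB replicate 1, where 1 phyB array alone had to stand apart. Without phyB replicate 2 there were 21 raised and 246 lowered, which held 9 of the 11 and 21 of the 36. Without WT replicate 1 there were 72 lowered, without phyA replicate 1 18 raised and 64 lowered, without phyA replicate 2 22 lowered, and without phyAphyB replicate 1 24 raised and 59 lowered. Without both arrays of high GAPDH ratio there were 27 raised and 330 lowered, holding 9 and 22 of the members. The median difference of raised members between phyA and WT was 0.01 to 0.95 without 1 array. Low intensities in phyB replicate 2 make the size of the lowered differences uncertain. At 17 of the 36 the distance to the nearest genotype mean was smallest without that array.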
